A study of Mus musculus with 18 samples.

Results

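The 10 genes described here are Atf4, the transcription factor of the integrated stress response, and 9 genes it is known to act with or to induce: Atf5, Ddit3, Trib3, Ddit4, Asns, Cth, Chac1, Slc7a5 and Slc3a2. They were taken by symbol, not by their values, from a table of read counts for 24062 genes, and all 10 were found. All 10 also passed the filter on low counts, which left 12859 genes for testing. The list contains the factor itself, and no binding or protein was measured, so the word target rests on background knowledge alone.

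In the integrated stress response, kinases that sense amino acid shortage, unfolded protein in the endoplasmic reticulum, viral RNA or heme shortage phosphorylate the initiation factor eIF2. Most translation then falls, while translation of the Atf4 message rises through upstream open reading frames, so the mRNA level of Atf4 is not a measure of its protein. ATF4 binds composite C/EBP-ATF elements, often with a C/EBP partner, and induces genes for amino acid synthesis and import, tRNA charging, redox balance and, under lasting stress, cell death. Blood progenitors depend on tight control of protein synthesis, and this pathway is one of the ways they adjust it.

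RNA sequencing was done on mouse progenitor lines made by giving lineage-negative bone marrow cells the MLL-AF9 fusion gene with a retrovirus. The cells came from a Ddx41-floxed strain with a Rosa-CreERT transgene, a Cre recombinase that 4-hydroxytamoxifen (4OHT) switches on, and they grew in IL-3, SCF and IL-6. Ddx41 encodes a DEAD-box RNA helicase, and the design asks what its loss does at 48 h, before the cell death that the series' design text describes. Each of 6 groups had 3 libraries, lettered A to C.

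WT cells had the genotype +/+, with no floxed allele. Het cells had 1 floxed allele (+/flox), which becomes +/- after Cre, and FF cells had both alleles floxed (flox/flox), which become -/-. Every line carried MLL-AF9 and the CreERT protein, and every line was given either 1 µM 4OHT or ethanol (EtOH), its solvent, for 48 h. The number of lines per genotype is not in the labels, nor whether the letters mark separate cultures. The p-values thus measure only how these libraries vary, possibly for technical reasons, and genotype cannot be told apart from line.

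Levels are given as CPM, counts divided by each library's TMM-adjusted total and multiplied by the same constant for every library. Library totals ran from 24730213 to 49277884 counts. In FF libraries A, B and C, Ddx41 itself was at 112, 82.0 and 73.7 CPM with ethanol and fell to 14.6, 16.5 and 17.7 CPM with 4OHT. It was at 71.3, 68.0 and 79.1 CPM and 58.4, 43.0 and 41.3 CPM in the corresponding Het groups, and at 75.5 to 93.0 CPM in WT. Ddx41 exons overlap an antisense gene. A pair of libraries stood apart from their line in the Y-linked gene Eif2s3y. It reached 86.3 CPM in FF_EtOH C, while the other 5 FF libraries had 0 counts of it. The Het libraries had 70.9 to 87.8 CPM, so this gene does not tell whether FF_EtOH C stood with WT or with Het. The library labelled WT_4OHT C had 0 counts, against 66.4 to 101 CPM in the other 5 WT libraries. FF_EtOH C and WT_4OHT C were kept under their labels, and the tests of the 10 genes were also run without them. Rn45s, the ribosomal RNA precursor, was highest in Het_4OHT A (14895 CPM), FF_4OHT B (18286 CPM) and FF_4OHT C (41159.5 CPM), with 1964 to 6594 CPM in the other 15 libraries.

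The progenitor label was checked against 8 markers. Elane, Prtn3 and Ctsg, granule proteases of early myeloid cells, each reached at least 1150.2 CPM in every library, and their list summed to 7792 to 11079 CPM in FF ethanol and 5824 to 6750.4 CPM in FF 4OHT, with 2 of 8 genes lower (1 without the libraries labelled WT_4OHT C and FF_EtOH C), beside 8.29% of all genes. Mpo, a further granule gene of that list, ranged from 64.7 to 3790 CPM over the libraries. With all libraries the 2 lower genes were Mpo (log2 -2.02, edgeR adjusted p = 0.0346) and Myb (-0.33, 0.0453). Cd34 and Flt3 stayed at or below 4.93 and 6.54 CPM. Kit ranged from 56.9 to 122 CPM over the libraries and did not pass in FF (log2 0.02, edgeR adjusted p = 0.956). The progenitor list summed to 6505 to 8778 CPM in Het ethanol, 5444 to 11298 CPM in Het 4OHT and 9248 to 14101 CPM over both WT treatments. Monocyte markers (7 of 8 listed genes in the table) summed to 555 to 789.6 CPM in FF ethanol and 1748 to 2295 CPM in FF 4OHT, with 4 of 7 higher (4 also without those libraries), beside 5.16% of all genes. In Het they summed to 649.8 to 1336 CPM in ethanol and 727 to 1712 CPM in 4OHT, and in WT to 620.1 to 920.1 CPM over both treatments. Erythroid and lymphoid lists summed to at most 4.90 and 11.8 CPM, and Hba-a1, Hbb-bt, Cd3e and Ebf1 had 0 counts in all 18 libraries. Mast cell and megakaryocyte lists summed to at most 35.4 and 11.3 CPM, and stromal or endothelial markers to 355 to 445 CPM in Het and 65.8 to 227 CPM in the other lines. Most of that last sum was the single gene Pecam1 (63.2 to 430 CPM over the libraries). Pdgfrb reached at most 25.0 CPM, and Lepr, Col1a1, Cxcl12 and Cdh5 at most 5.05 CPM. These are bulk samples, in which fewer cells of a type and less RNA per cell cannot be told apart.

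The element known for ATF4 was looked for in the members' promoters, because it is the sequence feature that the group is named for. The motif searched was TGATGNAA, the core of the C/EBP-ATF composite site, on both strands, in RefSeq windows (GRCm38.p6) from 250 bases before to 50 bases after each gene start. Windows existed for 8 of the 10 genes, with Cth and Slc7a5 not analysed here. The motif was found in 3 of the 8 genes, which are Asns, Chac1 and Trib3 (37.5%). Counted by window, it was in 3 of the 9 windows of these 8 genes (33.3%) and in 1304 of all 32851 windows (3.97%). It was not found in the windows of Atf4, Atf5, Ddit3, Ddit4 and Slc3a2. The 3 sites are shown 5′ to 3′ on the strand of the gene, with the motif in capitals.
Asns: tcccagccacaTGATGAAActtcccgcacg
Chac1: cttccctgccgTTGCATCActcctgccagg
Trib3: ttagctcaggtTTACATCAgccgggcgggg
With the flanking bases shown, the Asns site lies at chr6:7693214-7693243 (gene on the minus strand). Its motif reads on the strand of the gene and starts 23 bases before the RefSeq start. The Chac1 site with its flanks lies at chr2:119351038-119351067 (plus strand). Its motif is on the opposite strand and starts 193 bases before the RefSeq start. The Trib3 site with its flanks lies at chr2:152344028-152344057 (minus strand). Its motif is also on the opposite strand and starts at base 15 after the RefSeq start. GENCODE M21 places the start of Asns upstream of its site, which is thus inside the first GENCODE exon, and the start of Trib3 downstream of the motif. A match describes the letters and is not a measured binding site. Of these 3 genes, Asns alone passed the test in FF cells.

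Across the 10 genes, levels in WT cells given ethanol were compared per kilobase of exon, as RPKM computed from TMM-scaled counts. Atf4 was the highest at 300.1 ± 27.3 RPKM (SD, n = 3). The transporter subunit Slc7a5 (104 ± 1.99) and Asns (101 ± 11.9) came next and lay within their spread of each other. Slc3a2 (81.1 ± 3.02) and Atf5 (72.1 ± 9.25) followed, also within their spread of each other. The lower 5 were Cth (15.2 ± 2.63), Ddit4 (13.95 ± 7.69), Trib3 (11.1 ± 1.98), Chac1 (10.6 ± 1.91) and Ddit3 (8.15 ± 2.54), and no neighbours in that order differed by more than their summed SDs.

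In FF cells given 4OHT, 3 of the 10 genes fell and none rose: Asns, Cth and Slc7a5, which serve amino acid synthesis and import. In edgeR's quasi-likelihood test with Benjamini-Hochberg adjustment over all 12859 genes, 8.29% of genes were called lower and 5.16% higher in this comparison at an adjusted p of 0.05. The median log2 fold change of the 10 genes was -0.57 (range -2.92 to 0.14, 9 of 10 below 0), beside -0.02 for all genes. Without the libraries labelled WT_4OHT C and FF_EtOH C the same 3 genes fell and none rose, 7.52% of all genes were called lower, and the median of the 10 was -0.51. The libraries of both FF groups did not overlap for those 3 genes, which held for 40.2% of all genes. Without the 2 libraries, a step that can only add genes to this count, Ddit4 joined them, which made 4 of the 10, beside 52.4% of all genes. The rise in monocyte markers and, in FF_4OHT B and C, in Rn45s moved with the same libraries, and their part in these values was not tested.

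**Figure D1:**
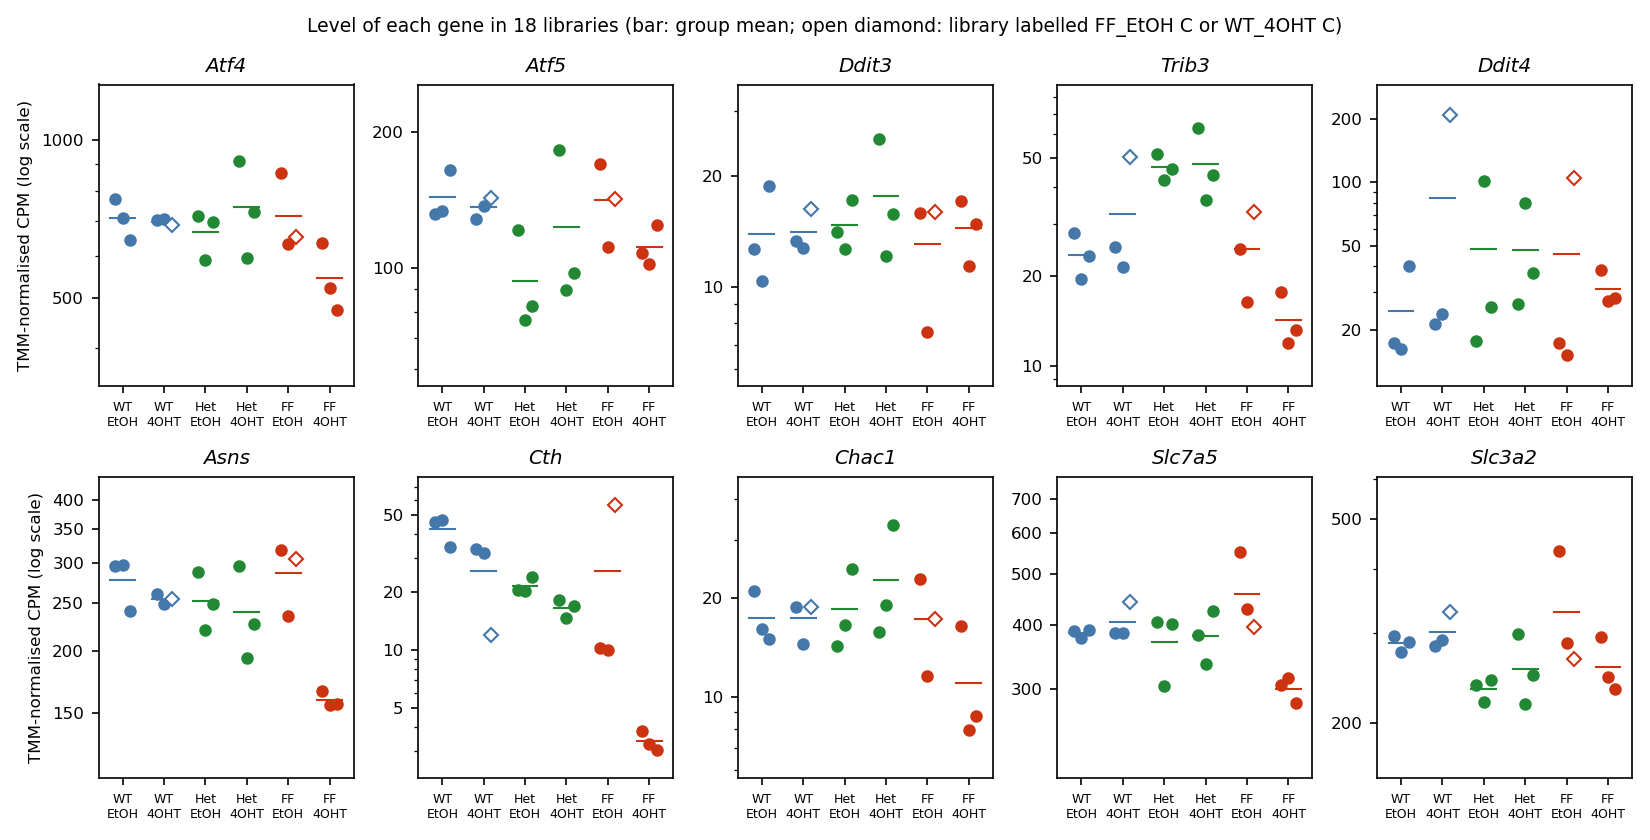
Level of each of the 10 genes in each of the 18 libraries, in TMM-normalised CPM on a log axis. Points are libraries, bars are group means, and open diamonds are the libraries labelled WT_4OHT C and FF_EtOH C. Asns is lowest in the 3 FF 4OHT libraries (156 to 166 CPM), and the Cth libraries given 4OHT lie below those given ethanol in each line, a difference that passed the test in FF alone.

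Atf4, the factor itself (chr15:80255184-80257541, plus strand in GRCm38), was at 865, 632 and 652 CPM in the FF ethanol libraries A, B and C and at 637, 522 and 474 CPM in FF 4OHT. The highest 4OHT library lay above the lowest ethanol library, so the groups overlapped. The FF difference was log2 -0.40 ± 0.16 SE and did not pass the test (edgeR adjusted p = 0.114). Het libraries were at 717, 590.5 and 695 CPM in ethanol and 911, 595 and 728 CPM in 4OHT, and WT libraries at 772, 709 and 643 CPM and 702, 705 and 688 CPM. Het_4OHT A, the Het library highest in Rn45s, was the highest of all 18 for Atf4. The FF difference was log2 -0.24 without FF_EtOH A (adjusted p = 0.396). It passed with a replicate block on shared letters (edgeR adjusted p = 0.0478) or within each line (0.0179). It also passed without the libraries labelled WT_4OHT C and FF_EtOH C and Het_4OHT A (edgeR adjusted p = 0.0457). At each letter the FF 4OHT library was the lower, but whether letters pair libraries cannot be told, and FF_EtOH C stood apart in Eif2s3y.

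Atf5, a related bZIP factor with the same kind of translational control (chr7:44812256-44816658, minus strand), was at 170.5, 111 and 143 CPM in FF ethanol and 108, 102 and 125 CPM in FF 4OHT. These groups overlapped (log2 -0.34 ± 0.24 SE, edgeR adjusted p = 0.383), and without FF_EtOH A the difference was -0.19. In Het ethanol it was at 122, 76.8 and 82.6 CPM, all below the WT ethanol libraries (132 to 165 CPM), a difference that did not pass (log2 -0.62 ± 0.24 SE, edgeR adjusted p = 0.0737). Atf5 passed as lower in Het in 5 of 29 alternatives, among them those without Het_EtOH A (log2 -0.84, adjusted p = 0.0297) or Het_4OHT A (-0.62, 0.0132), and its adjusted p ran up to 0.290. Ddit3, which encodes CHOP, a pro-apoptotic factor of lasting stress (chr10:127290774-127296288, plus strand), was at 15.9, 7.57 and 15.98 CPM in FF ethanol and 17.2, 11.4 and 14.8 CPM in FF 4OHT. The ethanol libraries enclosed 2 of the 3 4OHT values, and the difference of log2 0.14 ± 0.31 SE did not pass (edgeR adjusted p = 0.815). Its sign changed without FF_EtOH B (log2 -0.14). Exons of Atf5 overlap antisense exons of Nup62 and Il4i1, and those of Ddit3 antisense exons of Mars and Gm4189, so reads of these pairs cannot be told apart where the counting strand is not known.

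Trib3, a pseudokinase induced by ATF4 that restrains it in turn (chr2:152337422-152344032, minus strand), was at 24.8, 16.4 and 32.9 CPM in FF ethanol and 17.7, 12.0 and 13.1 CPM in FF 4OHT. The 4OHT library A lay above the ethanol library B, so the groups overlapped. The FF difference was log2 -0.79 ± 0.31 SE (edgeR adjusted p = 0.105), and -0.53 (adjusted p = 0.183) without the libraries labelled WT_4OHT C and FF_EtOH C. It passed when WT_4OHT C, a library of neither FF group, was alone left out (adjusted p = 0.0444), and over 30 alternatives its adjusted p ran from 0.0444 to 0.336. Between the lines in ethanol, Trib3 was at 51.6, 42.1 and 45.8 CPM in Het ethanol and 27.9, 19.5 and 23.3 CPM in WT ethanol. Every Het ethanol library exceeded every WT ethanol library.

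Ddit4, which encodes the mTORC1 inhibitor REDD1 (chr10:59949669-59951834, minus strand), varied widely between libraries of a group, with SDs of up to 107 CPM beside group means of 24.5 to 84.0 CPM. It was at 17.3, 15.1 and 104 CPM in FF ethanol and 38.2, 27.5 and 28.1 CPM in FF 4OHT. In Het it was at 17.6, 101 and 25.5 CPM in ethanol and 26.5, 79.8 and 37.1 CPM in 4OHT. In WT it was at 17.3, 16.1 and 40.1 CPM in ethanol and 21.3, 23.6 and 207 CPM in 4OHT. Its 4 highest libraries were WT_4OHT C, FF_EtOH C, Het_EtOH B and Het_4OHT B, of which the leading 2 are those that stood apart from their line in Eif2s3y. The FF difference was log2 -0.54 ± 0.92 SE with all libraries (edgeR adjusted p = 0.753) and 0.95 ± 0.64 without these 2 (adjusted p = 0.369). The WT difference turned from 1.78 ± 0.94 to -0.13 ± 0.62. No direction can be given for this gene in FF or WT.

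Asns, which makes asparagine from aspartate and glutamine and is a standard readout of ATF4 activity (chr6:7675169-7693254, minus strand), is the gene whose promoter site reads on its own strand. FF libraries A, B and C were at 319, 235 and 306 CPM in ethanol and 166, 156 and 156 CPM in 4OHT. Het libraries were at 287, 219.8 and 248 CPM in ethanol and 296, 193 and 227 CPM in 4OHT. WT libraries were at 296, 297 and 240.0 CPM in ethanol and 259.6, 249 and 254 CPM in 4OHT. The 3 FF 4OHT libraries were the lowest of the 18 and did not overlap FF ethanol, whereas the treatments overlapped in Het and WT. In FF cells Asns fell to 55.7% of its ethanol mean (log2 -0.85 ± 0.15 SE, edgeR adjusted p = 0.00243), and by 0.80 on the log2 scale without the libraries labelled WT_4OHT C and FF_EtOH C (adjusted p = 0.0118). Over 30 alternatives its adjusted p ran up to 0.0146. FF_4OHT A, with Rn45s at 5987 CPM, within the range of the ethanol libraries, had an Asns level of 166 CPM beside 156 CPM in each of FF_4OHT B and C. That is 1 library, and the part of Rn45s in the Asns levels was not tested.

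Cth, cystathionine gamma-lyase, which releases cysteine in the last step of transsulfuration (chr3:157894248-157925077, minus strand), had the largest log2 change among the 10. FF libraries were at 10.3, 10.1 and 56.4 CPM in ethanol and 3.81, 3.28 and 3.04 CPM in 4OHT. Het libraries were at 20.5, 20.2 and 23.9 CPM in ethanol and 18.3, 14.6 and 16.9 CPM in 4OHT. WT libraries were at 46.1, 47.3 and 34.0 CPM in ethanol and 33.4, 31.9 and 11.9 CPM in 4OHT. In each line all 3 4OHT libraries lay below all 3 ethanol libraries, and both libraries that stood apart from their line in Eif2s3y were the extremes of their groups. In FF cells Cth fell by 2.92 on the log2 scale (SE 0.56, edgeR adjusted p = 0.00311), and by 1.59 (SE 0.17, adjusted p = 0.000313) without those 2 libraries. Over the alternatives the adjusted p of Cth in FF ran up to 0.0348.

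Among the ethanol groups Cth stood in the order WT, Het, FF once those libraries were left out. In that fit Cth passed as lower in Het than in WT (log2 -0.98 ± 0.15 SE, edgeR adjusted p = 0.000147) and as lower in FF than in WT (-2.06 ± 0.18, adjusted p = 3.09e-06). With all 18 libraries the same differences were -0.98 ± 0.50 (adjusted p = 0.185) and -0.73 ± 0.50 (adjusted p = 1.00). Neither library left out belongs to the Het or WT ethanol group, so the Het difference stayed at -0.98 while its SE changed. These differences were present in ethanol, without 4OHT.

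Chac1 degrades glutathione, the tripeptide that stores cysteine (chr2:119351229-119354381, plus strand). It was at 22.8, 11.6 and 17.2 CPM in FF ethanol and 16.4, 7.93 and 8.78 CPM in FF 4OHT, with overlap. The difference of log2 -0.64 ± 0.33 SE did not pass the test (edgeR adjusted p = 0.222), and was -0.39 without FF_EtOH A and -1.04 without FF_4OHT A. It passed with a replicate block within each line (edgeR adjusted p = 0.0106), and its adjusted p ran up to 0.556 over the alternatives. Over the other 4 groups Chac1 ranged from 14.3 to 33.3 CPM, the highest being Het_4OHT C.

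Slc7a5 (LAT1), the catalytic chain of the main importer of large neutral amino acids such as leucine (chr8:121881150-121907694, minus strand), was at 551, 429 and 397 CPM in FF ethanol and 305, 315 and 283 CPM in FF 4OHT. Het libraries were at 405, 304 and 400.2 CPM in ethanol and 381, 336 and 425 CPM in 4OHT. WT libraries were at 389, 377 and 390.2 CPM and 386, 386 and 443 CPM. All FF 4OHT libraries lay below all FF ethanol libraries, while the treatments overlapped in Het and WT. Slc7a5 fell in FF cells to 65.6% of its ethanol mean (log2 -0.61 ± 0.14 SE, edgeR adjusted p = 0.00872). It did not pass without FF_4OHT C (log2 -0.55, adjusted p = 0.0558), and it passed without the libraries labelled WT_4OHT C and FF_EtOH C (-0.70, adjusted p = 0.00799).

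Slc3a2 (CD98 heavy chain, 4F2hc), which carries Slc7a5 to the plasma membrane (chr19:8706882-8723369, minus strand), was at 433, 287 and 267 CPM in FF ethanol and 294, 246 and 233 CPM in FF 4OHT. FF_4OHT A lay above the ethanol libraries B and C, so the groups overlapped. The difference was log2 -0.35 ± 0.16 SE and did not pass (edgeR adjusted p = 0.164), also without the libraries labelled WT_4OHT C and FF_EtOH C (-0.48, adjusted p = 0.0744). It was -0.11 without FF_EtOH A (adjusted p = 0.674), and passed without those 2 libraries and Het_4OHT A (-0.48). In Het and WT it ranged from 218 to 329 CPM.

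The Het and WT responses contained no called member. In Het the 10 log2 differences ran from -0.38 (Cth) to 0.40 (Atf5), with a median of 0.09, and 0.0156% of all genes were called. Among the regulators the Het values were 0.16 (Atf4), 0.27 (Ddit3), 0.03 (Trib3) and -0.0038 (Ddit4). For the enzymes and transporters they were -0.08 (Asns), 0.30 (Chac1), 0.04 (Slc7a5) and 0.13 (Slc3a2). In WT they ran from -0.72 (Cth) to 1.78 (Ddit4), with a median of 0.01, and 0% of all genes were called. The WT values of the other regulators were -0.02 (Atf4), -0.07 (Atf5), 0.02 (Ddit3) and 0.46 (Trib3). Those of the enzymes and transporters were -0.13 (Asns), -0.0018 (Chac1), 0.07 (Slc7a5) and 0.07 (Slc3a2). These counts of 0 equal or lie near the share of all genes. In edgeR no member had an unadjusted p below 0.05 in either line, beside 246 of all 12859 genes in Het and 275 in WT. DESeq2 called 0 members in both. Without the libraries labelled WT_4OHT C and FF_EtOH C, Cth alone was below 0.05 before adjustment, in Het (log2 -0.38 ± 0.15 SE, edgeR adjusted p = 0.984) and in WT (-0.38 ± 0.16, adjusted p = 1.00). Of the 13041 genes tested then, 328 in Het and 93 in WT were below 0.05 before adjustment. Cth was also the 1 member whose treatments did not overlap in these lines, beside 4.95% of all genes in Het and 4.82% in WT (11.3% in WT without WT_4OHT C).

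**Figure D2:**
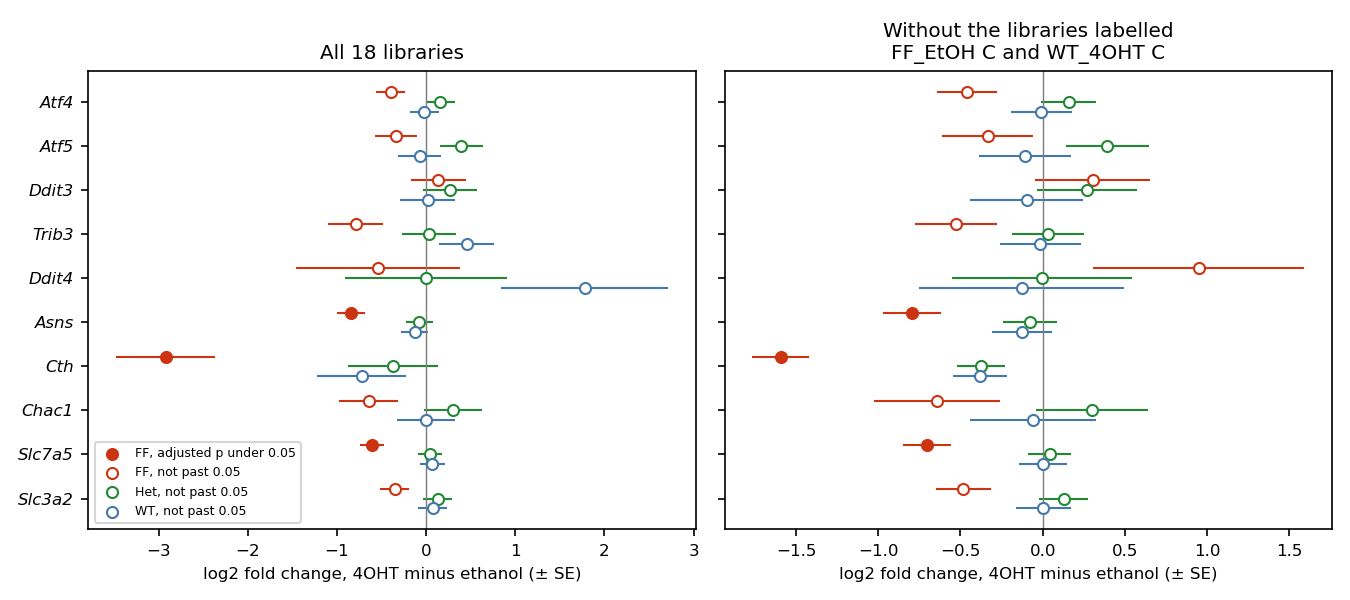
Fitted log2 fold change of each gene, 4OHT minus ethanol, in FF, Het and WT cells, with bars of ± 1 SE; the left panel uses all 18 libraries, the right panel leaves out the libraries labelled WT_4OHT C and FF_EtOH C, and the horizontal scales differ. Filled points passed an edgeR adjusted p of 0.05: Asns, Cth and Slc7a5 in FF in both panels, while Ddit4 in FF moves from -0.54 to 0.95.

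Whether the FF response differed from that of another line was tested as an interaction. No member was called against the WT response, where 2.3% of all genes were called. An unadjusted p below 0.05 in edgeR was found for 4 of 10, beside 1964 of all 12859 genes. These members were Asns (-0.72, adjusted p = 0.108), Slc7a5 (-0.68, 0.0871), Cth (-2.20, 0.149) and Trib3 (-1.25, 0.171), given as log2 differences. Trib3 left this group without the libraries labelled WT_4OHT C and FF_EtOH C (-0.51, adjusted p = 0.552), and the difference was -0.78 without WT_4OHT C alone. The other 6 were Atf4 (-0.38), Atf5 (-0.27), Ddit3 (0.12), Ddit4 (-2.32), Chac1 (-0.64) and Slc3a2 (-0.43), with Ddit4 at 1.08 without those 2 libraries. No member was called against the Het response either, where 2.5% of all genes were called. There 5 had an unadjusted p below 0.05 in edgeR, beside 2092 of all 12859 genes. They were Asns (-0.77, adjusted p = 0.0780), Cth (-2.55, 0.0849), Slc7a5 (-0.65, 0.0939), Atf4 (-0.55, 0.231) and Atf5 (-0.74, 0.289). Without those 2 libraries Slc3a2 (-0.61, adjusted p = 0.168) stood in the place of Atf5 (-0.73, 0.326). The others were Ddit3 (-0.13), Ddit4 (-0.54), Trib3 (-0.83), Chac1 (-0.94) and Slc3a2 (-0.48), of which Ddit3 and Ddit4 changed sign without those libraries (0.04 and 0.95). Both interactions use the same FF libraries, so they are not separate evidence. DESeq2 called Asns, Cth and Slc7a5 in both. Over the alternatives the adjusted p of Asns ran from 0.0284 to 0.337 against WT and from 0.0225 to 0.205 against Het.

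Cth was the member that turned on the libraries left out. Without the libraries labelled WT_4OHT C and FF_EtOH C its FF response was lower than the WT response (log2 difference -1.21 ± 0.24 SE, edgeR adjusted p = 0.0332; 0.905% of all genes were called) and lower than the Het response (-1.22 ± 0.23, adjusted p = 0.0159; 2.45%). Over the alternatives its adjusted p ran from 0.00945 to 0.417 against WT and from 0.00963 to 0.242 against Het. No other member was called in the fit without those 2 libraries. The Asns differences were then -0.67 ± 0.25 (adjusted p = 0.238) and -0.72 ± 0.24 (adjusted p = 0.135). A difference that misses the threshold does not show that the lines respond alike.

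Between lines in ethanol, 1 member was called. Trib3 was higher in Het than in WT by log2 0.98 ± 0.31 SE (edgeR adjusted p = 0.0294), in a comparison that called 23.7% of all genes, and 13.3% as higher in Het. The Trib3 call was lost without WT_EtOH B (adjusted p = 0.114), WT_EtOH C (0.0571), Het_EtOH A (0.0772) or Het_EtOH C (0.0610), at log2 0.86 to 1.02. Beside Trib3, Atf5 and Cth, the log2 differences of Het from WT were -0.08 (Atf4), 0.07 (Ddit3), 0.97 (Ddit4), -0.14 (Asns), 0.09 (Chac1), -0.06 (Slc7a5) and -0.29 (Slc3a2). Without the libraries labelled WT_4OHT C and FF_EtOH C it was 0.98 ± 0.22 (adjusted p = 0.00415), and Cth joined it as lower in Het, with 25.8% of all genes called. FF and WT in ethanol differed at no member and at 0% of all genes with all libraries. No member had an unadjusted p below 0.05 in edgeR, beside 707 of all 12859 genes, and DESeq2 called no member. The log2 differences of FF from WT were 0.02 (Atf4), -0.02 (Atf5), -0.09 (Ddit3), 0.07 (Trib3) and 0.89 (Ddit4) for the regulators, with Ddit4 at -0.60 without those 2 libraries. For the other genes they were 0.05 (Asns), -0.73 (Cth), -0.01 (Chac1), 0.25 (Slc7a5) and 0.20 (Slc3a2). Without those 2 libraries, Cth was called and 4.71% of all genes were.

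Ratios of counts within a library do not depend on scaling between libraries. Their pairs were chosen after the values had been seen. Asns as a percentage of Atf4 counts was 36.8%, 37.1% and 46.9% in FF ethanol and 26.1%, 29.8% and 33.0% in FF 4OHT. In Het it was 40.1%, 37.2% and 35.7% in ethanol and 32.5%, 32.5% and 31.2% in 4OHT. In WT it was 38.3%, 41.9% and 37.3% and 37.0%, 35.3% and 36.9%. The 4OHT libraries all lay below the ethanol libraries of their line, and differences between the lines were not tested. The means went from 40.3% ± 5.76 to 29.6% ± 3.46 in FF (SD, n = 3), from 37.7% ± 2.21 to 32.0% ± 0.775 in Het and from 39.2% ± 2.43 to 36.4% ± 0.948 in WT. The exact two-sided permutation p was 0.1 in each line, the smallest that 3 against 3 libraries allow, and 0.5 after adjustment over 15 such tests. The mean with 4OHT was 73.6% of the ethanol mean in FF, 85.1% in Het and 92.9% in WT. Without the libraries labelled WT_4OHT C and FF_EtOH C it was 80.2% in FF (3 4OHT and 2 ethanol libraries) and 92.2% in WT (2 and 3). Leaving libraries out cannot create an overlap, so its absence there adds nothing.

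Slc7a5 and Slc3a2 form 1 transporter from 2 chains. Slc7a5 counts were 127%, 149% and 148% of Slc3a2 counts in FF ethanol and 104%, 128% and 122% in FF 4OHT. The ratio thus overlapped between treatments, with means of 142% ± 12.5 and 118% ± 12.7 (SD, n = 3; exact two-sided permutation p = 0.2). Ddit3 per Atf4 went from 1.83% ± 0.626 to 2.67% ± 0.471 in FF (exact permutation p = 0.2), also with overlap. Without FF_EtOH C the mean in FF ethanol was 138% for Slc7a5 per Slc3a2, still with overlap, and 1.52% for Ddit3 per Atf4, then without overlap. For Trib3 and Chac1 per Atf4 the exact permutation p lay between 0.2 and 0.9 over the 3 lines.

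**Figure D3:**
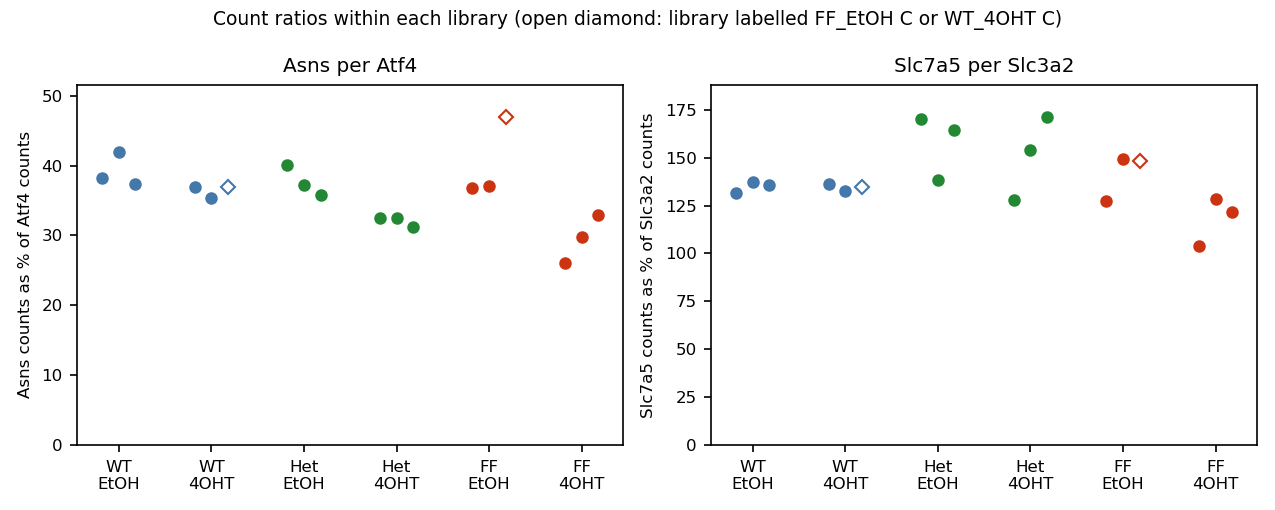
Counts of Asns as a percentage of Atf4 counts (left) and of Slc7a5 as a percentage of Slc3a2 counts (right) in each of the 18 libraries by group; points are libraries and open diamonds are the libraries labelled WT_4OHT C and FF_EtOH C. The Asns ratio is lower in every 4OHT library than in any ethanol library of its line, with means of 29.6% and 40.3% in FF.

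The genes whose log2 CPM followed Asns most closely over the 18 libraries, among 8466 genes at 10 CPM or more, were Dpagt1 (Pearson's r = 0.94), which starts N-glycan assembly, Birc5 (0.93), a chromosomal passenger protein, and Tpx2 (0.93), a spindle assembly factor. For Atf4 they were Lyar (0.93), Thap1 (0.92) and D5Ertd605e (0.91). No member was among the candidates, and the 18 points share lines and libraries, so these values are descriptions. The FF libraries are among those 18, so the FF values of these genes were part of what chose them.

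The wider pathway was described with 9 lists that hold none of the 10 genes, by counts at an edgeR adjusted p of 0.05 and by the median log2 fold change, beside -0.02 for all genes in FF cells. The FF 4OHT libraries behind these values are the ones with the monocyte marker sums and Rn45s levels already given, whose part was not tested. Of all genes 8.29% fell and 5.16% rose in FF (7.52% and 4.43% without the libraries labelled WT_4OHT C and FF_EtOH C). Amino acid synthesis stood lowest. Of 19 tested genes (20 listed), 11 fell in FF, none rose, all 19 were below 0 and the median was -0.61. Aldh18a1, which opens proline synthesis, fell from 217 ± 7.21 to 112 ± 3.92 CPM (log2 -0.96 ± 0.10, adjusted p = 6.03e-05). Bcat1, the cytosolic branched-chain aminotransferase, fell from 13.9 ± 1.501 to 3.10 ± 1.14 CPM (log2 -2.15 ± 0.26, adjusted p = 0.000147). Pycr1, which completes proline synthesis, fell from 10.8 ± 1.67 to 4.83 ± 0.373 CPM (log2 -1.16 ± 0.15, adjusted p = 0.000231). Shmt2, the mitochondrial enzyme that makes glycine from serine, fell from 429 ± 35.2 to 231 ± 16.5 CPM (log2 -0.89 ± 0.14, adjusted p = 0.000939). Without the libraries labelled WT_4OHT C and FF_EtOH C, 11 were again called lower. Against the WT response 7 of the 19 were called, all lower (4 without those 2 libraries), and against the Het response 5 (7), with a shared FF arm. Of all genes 2.3% were called against WT (0.905% without those libraries) and 2.5% against Het (2.45%).

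Cytosolic aminoacyl-tRNA synthetases, which charge tRNAs, moved the same way by less. Of 20, 10 fell in FF, none rose, and all 20 were below 0 (median -0.34). Vars, the valyl enzyme, fell from 374 ± 27.5 to 202 ± 6.74 CPM (log2 -0.89 ± 0.10, adjusted p = 0.000120). The methionyl enzyme Mars (log2 -0.52), the glutamyl-prolyl enzyme Eprs (-0.53) and the asparaginyl enzyme Nars (-0.52) fell with edgeR adjusted p of 0.000858, 0.00524 and 0.00556. Mars lies antisense to Ddit3. Against the WT response 2 of the 20 were called (1 without the libraries labelled WT_4OHT C and FF_EtOH C) and against the Het response 3 (2), all lower. The amino acid transporters were mixed, with 4 of 17 tested genes lower, 1 higher and a median of -0.17. The glutamine importer Slc1a5 fell from 333 ± 16.3 to 160.0 ± 9.71 CPM (log2 -1.06 ± 0.13, adjusted p = 0.000147). Slc38a7, a lysosomal glutamine transporter, rose from 19.1 ± 0.790 to 47.3 ± 7.30 CPM (log2 1.31 ± 0.16, adjusted p = 0.000156). Slc1a4 and the glycine transporter Slc6a9 fell (log2 -1.44 and -1.70; edgeR adjusted p = 0.000218 and 0.000565).

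**Figure D4:**
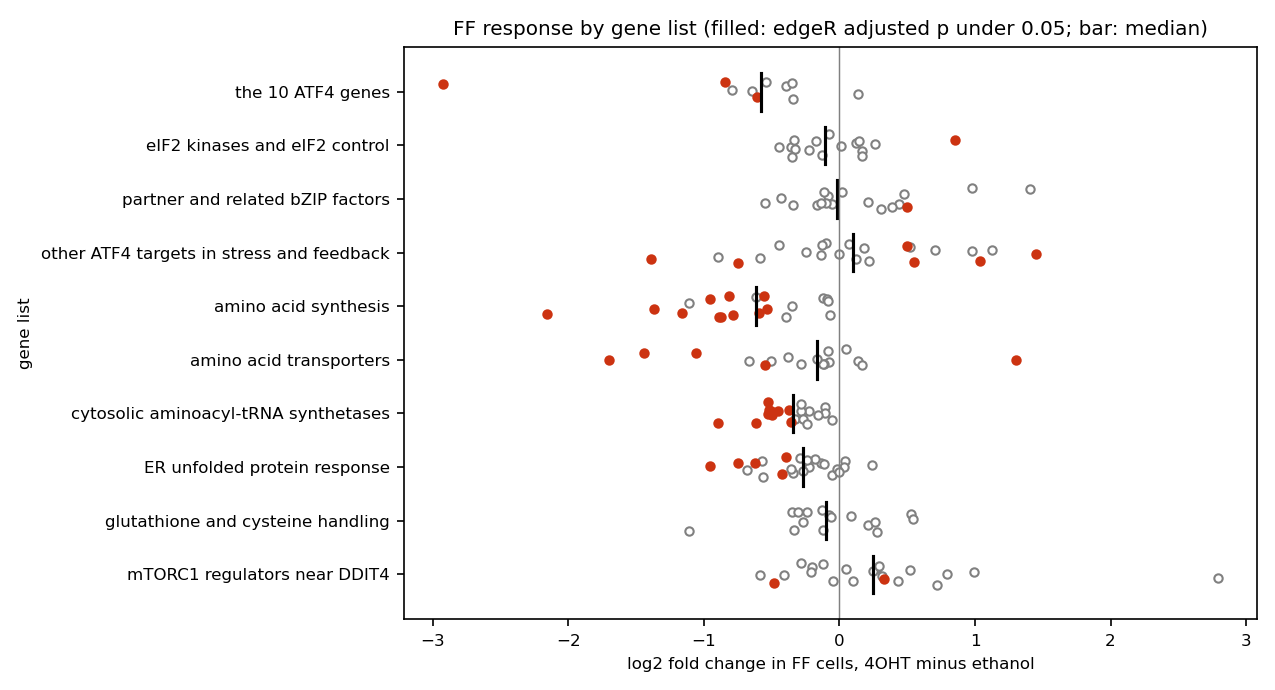
Log2 fold change in FF cells, 4OHT minus ethanol, for each tested gene of the 10 ATF4 genes and of 9 related lists; points are genes, filled where the edgeR adjusted p is under 0.05, and black bars are list medians. Amino acid synthesis (median -0.61) and the tRNA synthetases (-0.34) lie wholly below 0, while the eIF2 control list (-0.10) spans 0.

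On the upstream side of the pathway the share of called genes lay near that of all genes. Of 16 genes for the eIF2 kinases, eIF2 and its control, 1 passed in FF, as higher (5.16% of all genes were), and the median was -0.10. It was Impact, an inhibitor of the amino acid sensor GCN2, which rose from 23.6 ± 5.92 to 42.6 ± 6.38 CPM (log2 0.85 ± 0.23, adjusted p = 0.0228) and did not pass without the libraries labelled WT_4OHT C and FF_EtOH C (adjusted p = 0.0877). Of 18 partner and related bZIP factors, 1 passed, Crebzf, which rose from 78.0 ± 20.5 to 110.5 ± 4.53 CPM (log2 0.50 ± 0.15, adjusted p = 0.0350), with a list median of -0.02.

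Other ATF4 targets in stress and feedback went both ways in FF, with 4 of 22 tested genes higher (5.16% of all genes), 2 lower (8.29%) and a median of 0.10 (2 and 2, -0.07, without those 2 libraries). The death receptor gene Tnfrsf10b rose from 12.1 ± 1.42 to 24.8 ± 2.995 CPM (log2 1.04 ± 0.20, adjusted p = 0.00311). The heme oxygenase Hmox1 rose from 21.9 ± 0.981 to 59.7 ± 17.3 CPM (log2 1.45 ± 0.41, adjusted p = 0.0284). Herpud1, of endoplasmic reticulum-associated degradation, and the secreted glycoprotein gene Stc2 fell (log2 -0.75 and -1.39; edgeR adjusted p = 0.00456 and 0.0299). In the unfolded protein response list, which also holds Herpud1, 5 of 23 fell, none rose and the median was -0.27. They included the chaperone cofactor Sdf2l1 (log2 -0.95), Hsp90b1 (-0.43) and the chaperone BiP, Hspa5 (-0.39, adjusted p = 0.0353), which did not pass without those 2 libraries (adjusted p = 0.100).

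Glutathione and cysteine handling, the process around Cth and Chac1, had 0 of 16 genes called in FF by edgeR, 1 called by DESeq2, and a median of -0.10. At an unadjusted p below 0.05 in edgeR this list had 2 genes, beside 3609 of all 12859. Its 2 most abundant genes, Gpx1 and Gsr, had log2 differences of -0.13 and 0.26 (edgeR adjusted p = 0.759 and 0.262). Of 21 regulators of mTORC1, the kinase complex that Ddit4 restrains, 1 fell (8.29% of all genes did) and 1 rose (5.16%), with a median of 0.25. DESeq2 called 4 of the 21, and 10 had an unadjusted p below 0.05 in edgeR, beside the same 3609 of all 12859 genes. The lower gene was Tsc2 (log2 -0.48, edgeR adjusted p = 0.0250) and the higher gene Rragc (0.33, adjusted p = 0.0424). In the Het and WT responses 0 of the 160 tested genes of the 9 lists were called by edgeR or DESeq2. An unadjusted p below 0.05 in edgeR was found for 1 and 2 of them, beside 246 and 275 of all 12859 genes. In these responses edgeR called 0.0156% and 0% of all genes, so counts of 0 in the lists say nothing particular to them.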

How the data were processed

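RNA was measured in 18 libraries, 3 in each of 6 groups, grouped by the genotype and treatment in the labels. The deposited values are whole-number counts of reads per gene symbol, not normalized. Total RNA was extracted with a Zymo kit and sequenced with standard Illumina libraries, per the labels' protocols. Per the submitters' processing notes, the build was mm10 and the tools were featureCounts 1.5.2 with Subread, HISAT2 2.0.5, FastQC 0.11.7 and CASAVA 1.4. Not given in the sources used here are the counting annotation, the strand setting and the treatment of multiply mapping reads, so reads of overlapping genes may be shared. Library totals were 24730213 to 49277884 counts. No libraries were duplicates: over 153 pairs the smallest chi-square per gene was 9.53.

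Counts were analysed with edgeR 4.0.16 in R 4.3.3, with all groups in one model, a mean for each, TMM scaling, filterByExpr (minimum count 10, 12859 of 24062 genes left) and the robust quasi-likelihood F test. P-values were Benjamini-Hochberg adjusted over all tested genes, with a threshold of 0.05, in 7 comparisons. Standard errors of log2 fold changes come from the F statistic. The fit was tested on simulated data. Gene positions and exon lengths are from GENCODE M21 (GRCm38, the assembly of mm10), and promoter windows from RefSeq (GRCm38.p6).

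Members, lists and tests were chosen with earlier results of these data known. All members are given in every comparison. From each of 9 lists, the text names up to 4 genes that passed in FF, by lowest adjusted p, at a mean of 1 CPM or more, or the 2 most abundant where none passed. Likeness uses log2 CPM with a prior count of 2. Deviations of same-letter libraries from their group means had correlations of 0.54, 0.79 and 0.41 for A, B and C in Het. They were 0.59, -0.10 and 0.34 in WT and 0.16, 0.38 and 0.068 in FF. The C values of WT and FF include the libraries labelled WT_4OHT C and FF_EtOH C. Libraries of unlike letters were not compared, so whether letters pair the libraries of any line cannot be told. Alternatives were other scalings and filters, DESeq2 1.42.0, limma 3.58.1 voom, the compared groups alone, a replicate block, and libraries left out.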

Additional observations from a re-analysis of the deposited data

Results flagged for a closer look

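None of the 10 genes had an FF response that differed from another line past the edgeR threshold with all 18 libraries, whereas Ddx41 and several related genes named in the report did. Values are log2 differences between the FF response and that of the other line, from an interaction term adjusted over all tested genes. The FF libraries are shared by both comparisons, and the related genes were named for passing in the FF response, which uses those same libraries.

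Against WT, the FF response was lower for Ddx41 (-2.49), and for the amino acid synthesis genes Aldh18a1 (-0.95), Bcat1 (-2.04), Pycr1 (-1.15) and Shmt2 (-0.93). It was lower for the synthetases Vars (-1.02) and Mars (-0.56), the transporters Slc1a4 (-1.42) and Slc1a5 (-1.11) and the chaperone cofactor Sdf2l1 (-0.86), and higher for the lysosomal transporter Slc38a7 (1.16). Without the libraries labelled WT_4OHT C and FF_EtOH C, Mars, Sdf2l1 and Shmt2 did not pass (edgeR adjusted p = 0.113, 0.0541 and 0.0845).

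Against Het, the FF response was lower for Ddx41 (-1.84), Aldh18a1 (-0.93), Bcat1 (-2.27), Pycr1 (-1.07), Shmt2 (-1.07), Vars (-0.97) and Mars (-0.54). It was also lower for Slc1a4 (-1.32), Slc1a5 (-1.16), Slc6a9 (-1.44), Sdf2l1 (-1.12) and Herpud1 (-0.87), and higher for Slc38a7 (1.00). Without those 2 libraries Slc6a9 did not pass (edgeR adjusted p = 0.0662).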

How the results depend on the processing

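The counts of called members, their FF differences and 14 other differences of single members were recomputed under up to 30 alternatives, and the related lists, ratios and overlaps only without the libraries labelled WT_4OHT C and FF_EtOH C (lists also with DESeq2; ratios and overlaps were added after seeing the data). The FF falls of Asns (log2 -0.97 to -0.76) and Cth (-3.31 to -1.59) passed in all 30, and the Het and WT responses had 0 called members in all 30. The number of members called in FF, 3, was 5 with a replicate block within each line (Atf4 and Chac1 added), 4 with the block on shared letters (Atf4 added) and 5 without the libraries labelled WT_4OHT C and FF_EtOH C and Het_4OHT A (Atf4 and Slc3a2 added). The difference between FF and WT responses, 0 members, gave 3 with DESeq2, 2 with the compared groups alone, 2 with the replicate block within line, 1 in each of the 3 subsets without FF_EtOH C and WT_4OHT C, and 0 to 1 leaving out 1 library (1 without Het_4OHT A). That between FF and Het, 0, gave 3 with DESeq2, 1 with a replicate block on shared letters, 5 with the block within line, 1 without those 2 libraries or those and WT_EtOH C, 2 without those and Het_4OHT A, and 0 to 2 leaving out 1 library (2 without FF_EtOH B, 1 without FF_EtOH A or Het_4OHT B). Het against WT in ethanol, 1, gave 3 with those groups alone, 2 with the shared-letter block, 2 without the 2 libraries or those and WT_EtOH C, 3 without those and Het_4OHT A, and 0 to 2 leaving out 1 library (0 without WT_EtOH B, WT_EtOH C or Het_EtOH C, 1 without Het_EtOH A, where Atf5 stood in for Trib3, 2 without FF_EtOH C or Het_4OHT A). FF against WT in ethanol, 0, gave 1 in each of those 3 subsets. The cause of these moves was not tested.

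Signs turned for Ddit3 in FF (-0.14 to 0.30 leaving out 1 library; -0.14 without FF_EtOH B and -0.0038 without FF_4OHT A). They turned for Ddit4 in FF: 0.037 with voom, 0.021 and 0.077 with the replicate block on shared letters and within line, and 0.95 in each of the 3 subsets (-0.96 to 0.95 leaving out 1 library; 0.95 without FF_EtOH C). They turned for Ddit4 in WT: -0.13 without those 2 libraries (-0.13 to 2.33 leaving out 1 library; -0.13 without WT_4OHT C), and -0.12 without those 2 and Het_4OHT A. The replicate block changed no Het call. The block within line was not run for the ethanol comparisons, since the block is nested in the line. Other scalings moved the FF median of all genes from -0.02 to at most 0.01. The widest standard errors in FF were those of Ddit4 (0.92) and Cth (0.56). The lowest level of any member was 3.04 CPM (Cth in FF_4OHT C).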

Other observations

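Cth was 1 of 6 genes, of 12859 tested (0.0467%), for which every 4OHT library lay below every ethanol library in each of the 3 lines. The others were Azgp1, Dnajb9, Ganc, Rprd1b and Zeb1. The rule was chosen after the values of Cth had been seen, and no test was made of it. It takes the libraries labelled WT_4OHT C and FF_EtOH C under their labels, although both stood apart from their line in Eif2s3y. Without them 30 genes (0.233%) met the rule. Leaving libraries out cannot create an overlap, so the 6 genes, Cth included, had to be among these.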
